A study of Sus scrofa with 18 samples.

Results

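miR-1306 is a microRNA (miRNA), a short RNA that guides silencing proteins to messenger RNAs. Its 2 arms, miR-1306-5p and miR-1306-3p, were read in small RNA libraries of pig backfat, the fat layer under the skin of the back. The members were all sequences that the deposited table assigns to either mature arm (ssc-miR-1306-5p and ssc-miR-1306-3p), each counted once per arm. They came to 21 of the 16636 distinct sequences in the table (14 for 5p and 7 for 3p) and to 2 of its 240 mature miRNAs. miR-1306-5p was picked with its difference between the backfat classes already known, so every value by class is given as a description, with no test.

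The study set pigs with high backfat deposition (9 libraries, from 5 castrated males and 4 females) beside pigs with low backfat deposition (9 libraries, from 4 castrated males and 5 females). All were Italian Large White pigs of 150 to 160 kg that shared housing and diet, and the labels name no allele, transgene or agent. Age averaged 241 ± 4.47 days in high pigs and 243 ± 6.04 days in low pigs (SD over 9 animals a class). By sex it averaged 240 ± 4.80 days in castrated males and 244 ± 5.59 days in females (SD, n = 9 each). Backfat was taken at a slaughterhouse and frozen, Trizol total RNA went into TruSeq Small RNA libraries, and 2 libraries shared a sequencing lane. Each library carries its own animal number and was treated as a separate animal.

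miRNA hairpins are cut out of longer transcripts by the Microprocessor, made of the nuclease Drosha and its RNA-binding partner DGCR8. In human cells the Microprocessor also cuts hairpins inside the DGCR8 messenger RNA itself, which lowers that messenger, and miR-1306 is released from one such hairpin. Dicer then cuts the loop off, and either arm of the resulting duplex can be loaded into an Argonaute protein, where bases 2 to 8 (the seed) choose the targets. In the RefSeq annotation of the pig assembly Sscrofa11.1, the MIR1306 gene lies inside the DGCR8 gene as well, and MIR185 lies within 100000 bases of DGCR8. These libraries hold small RNAs, so the DGCR8 messenger was not measured here.

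The forms that carried most reads are shown because the leading read of each arm was not the annotated sequence. They are copied from the deposited table, which writes U as T, and run 5′ to 3′ with the seed in capitals. Positions are those of the table's extended precursor, both ends included; whether they count from 0 or 1 is not given in the sources used here.
5p, positions 38 to 59, annotated: cCACCTCCcctgcaaacgtcca
5p, positions 38 to 58, most reads: cCACCTCCcctgcaaacgtcc
5p, positions 38 to 60, T at the end: cCACCTCCcctgcaaacgtccat
5p, positions 40 to 61, later start: aCCTCCCCtgcaaacgtccagt
5p, positions 38 to 57: cCACCTCCcctgcaaacgtc
3p, positions 78 to 98, annotated: aCGTTGGCtctggtggtgatg
3p, positions 75 to 96, most reads: tGGACGTTggctctggtggtga
3p, positions 78 to 99, 1 mismatch: aCGTTGGCtctggtggtgatgt
3p, positions 75 to 95: tGGACGTTggctctggtggtg
3p, positions 78 to 97: aCGTTGGCtctggtggtgat

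Library totals, each distinct sequence counted once, ran from 11674414 to 28306762 reads in the high class and from 9601510 to 34588252 in the low class. No sequence listed once in the table had between 1 and 9 reads in any library, so a listed 0 can stand for up to 9 reads. Among the 378 values of the miR-1306 sequences, 184 were 0, and the smallest value above 0 was 10. High replicate 6, a female, stood apart before any comparison: it was the highest library for 47 of the 221 miRNAs tested and had the highest scaling factor of the trimmed mean of M-values method (TMM), 1.37. For several results that moved without it, values are given with and without it. The fixed lists held no miRNA that marks fat cells alone, so the tissue label was checked only through other tissues. Liver miR-122 had medians of 1.22 and 0.691 counts per 1000000 (CPM, TMM-scaled) in the high and low classes, with a highest single value of 43.1 CPM in the low class. The summed muscle miRNAs ran from 48.1 to 127 CPM among high libraries and from 77.96 to 210 CPM among low ones. Epithelial miR-205 reached 16.03 CPM among high libraries and 49.5 CPM among low ones, and the summed neural miRNAs ran from 94.3 to 143 CPM among high libraries and from 68.1 to 131 CPM among low ones. White blood cell miRNAs summed to 1076 to 3386 CPM among high libraries and 1402 to 3037 CPM among low ones. Endothelial miR-126, both arms, summed to 11374 to 41786 CPM among high libraries and 24952 to 37943 CPM among low ones. Medians in the high and low classes were 65.3 and 140 CPM for muscle, 6.35 and 9.26 for miR-205, and 115 and 98.4 for neural miRNAs. They were 1758 and 1587 CPM for white blood cell miRNAs and 33054 and 29417 CPM for miR-126. By sex the muscle median was 65.3 CPM in castrated males and 118 CPM in females, and no muscle miRNA tested was called by edgeR. The part of these tissues and cells in the results was not tested.

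miR-1306 was among the less abundant miRNAs of this tissue, and its 5p arm had the higher level. miR-1306-5p averaged 22.9 ± 7.41 CPM and miR-1306-3p 5.30 ± 1.34 CPM (SD, n = 18). Without high replicate 6 the 5p arm averaged 21.4 ± 3.93 CPM (SD, n = 17). Among the 221 miRNAs that passed the low-count filter the 5p and 3p arms ranked 162 and 189, and the median miRNA averaged 99.7 CPM. The spread of the 5p arm, a coefficient of variation of 32.4%, rested on high replicate 6. With that library 15 of the 40 miRNAs nearest in level varied more (median 28.4%), and without it the 5p arm had 18.4% and 34 of the 40 varied more (median 25.6%). The 3p arm had a coefficient of variation of 25.2%, and 34 of its 40 nearest miRNAs varied more, or 31 of 40 without high replicate 6.

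The neighbours in level were picked by mean CPM, so their closeness to each arm follows from that choice and was not tested. Next above 5p stood miR-136 at 23.7 ± 13.9, miR-874 at 23.8 ± 8.51 and miR-30c-1-3p at 24.1 ± 6.41 CPM. Next below stood miR-615 at 22.7 ± 10.7, miR-18a at 18.4 ± 6.49 and miR-2320-3p at 17.9 ± 5.17 CPM. The 3p arm lay below miR-432-5p at 5.43 ± 3.10, miR-194a at 5.81 ± 1.41 and miR-215 at 5.87 ± 2.43 CPM, and above miR-129b at 4.87 ± 1.80, miR-504 at 4.69 ± 2.79 and miR-183 at 4.62 ± 4.11 CPM (SD, n = 18 each).

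The most abundant 5p sequence was 1 base shorter at its 3′ end than the annotated one. The form at positions 38 to 58 held 4261 of the 9042 5p reads, or 47.1%, with a mean of 10.8 ± 3.21 CPM. The annotated form at 38 to 59 held 3328 reads, or 36.8%, with a mean of 8.42 ± 3.04 CPM (SD, n = 18). The shorter form had more reads than the annotated one in 17 of 18 libraries. The exception was high replicate 8, with 273 reads of the shorter form and 320 of the annotated one. Together with the form ending in T at position 60, these were the 3 forms of 5p listed in all 18 libraries, and they held 88.9% of its reads.

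Reads of the 5p arm shared 1 start with few exceptions, and so mostly 1 seed, apart from the seed mismatches given below. Start 38 held 94.6% of 5p reads. Start 40, which shifts the seed from CACCTCC to CCTCCCC, held 5.397%, most of it in the form at 40 to 61 with 403 reads in 17 of 18 libraries. The start-40 share of 5p reads ran from 2.22 to 7.15% in the high class and from 0 to 9.12% in the low class, where the 0 belongs to low replicate 9, a library of 11785344 reads.

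A further 8 of the 14 forms of 5p carried 1 mismatch and held 669 reads, or 7.40%. Substitutions are written as the template's base, its position from 1 at the read's 5′ end, and the read's base. The 3 forms whose mismatch is a T at or next to the 3′ end held 539 reads, or 5.96% of 5p reads. G23T accounted for most of these, with 446 reads at 38 to 60 in 18 of 18 libraries and 82 reads at 38 to 61 in 6 libraries, and A22T had 11 reads in 1 library. Mismatched A at the 3′ end (C21A and G23A) came to 29 reads, or 0.321%. Internal mismatches came to 101 reads, or 1.12%, and lay inside the seed: A3T had 64 reads in 5 libraries and 22 reads in 2 libraries on the 2 leading lengths, and C2T had 15 reads in 1 library. The mismatched share of 5p reads was 10.1 ± 2.84% in the 6 libraries coded U134 to U139 and averaged 5.38, 5.50 and 6.70% in the 3 other runs of library codes (4 libraries each). Library totals averaged 26604900 reads in U134 to U139, 24658200 in U074 to U077 and 12869800 in AC485 to AC488. Rare forms are listed at 0 more easily in shallow libraries, and the part of depth in this share was not tested.

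On the 3p arm the annotated sequence was the third of 7 forms in reads, and the leading form began 3 bases upstream. The form at 75 to 96 held 983 of the 2125 3p reads, or 46.3%, averaged 2.53 ± 0.482 CPM (SD, n = 18) and was the top 3p form in 18 of 18 libraries. The mismatched form at 78 to 99 followed with 380 reads, or 17.9%. The annotated form at 78 to 98 had 252 reads, or 11.9%, and was listed at 0 in 4 of 18 libraries. The forms at 75 to 95, 78 to 97, 75 to 97 and 77 to 97 held 201, 187, 111 and 11 reads. Start 75 thus carried 60.9% of 3p reads with the seed GGACGTT, and start 78 carried 38.5% with the annotated seed CGTTGGC. None of the 4 seeds named here was shared with the annotated form of any other of the 225 miRNAs that had one.

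**Figure D1:**
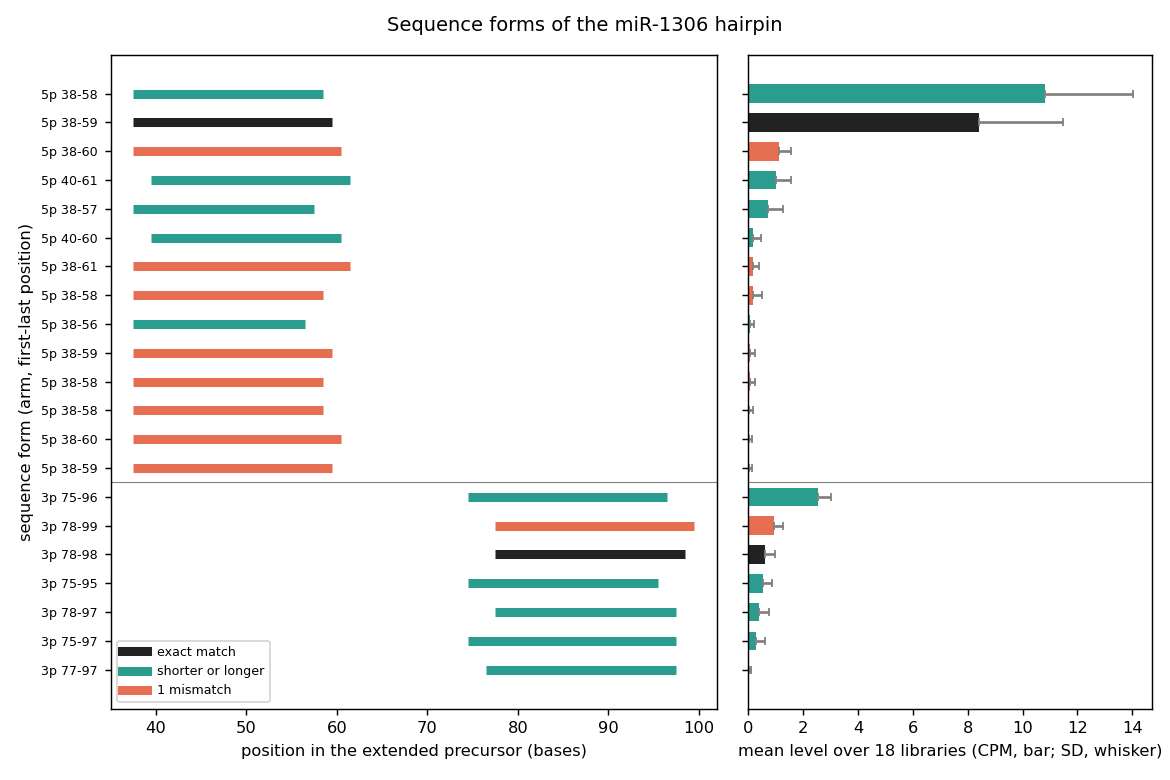
Position in the extended precursor (left, bases) and mean level over 18 libraries (right, TMM-scaled CPM, whiskers reaching 1 SD above the mean) of the 21 sequence forms, 5p above the line and 3p below it, coloured by how they relate to the annotated sequence. The 5p forms share start 38 except those at 40, and the leading 3p form at 75 to 96 (2.53 CPM) starts 3 bases before the annotated 3p form.

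A lead form that differs from the annotated sequence was common in the table, but one with another start was not. Of 215 tested miRNAs with an annotated form, 89 (41.4%) had another sequence on top, while 12 (5.58%) had a top sequence with another start and 3, including miR-1306-3p, had one that starts 3 or more bases away. The median miRNA had 99.8% of its reads at the annotated start. For miR-1306-3p that share was 38.5%, lower in only 7 miRNAs, and for miR-1306-5p it was 94.6%, lower in 54. The share of the exact annotated sequence, 36.8% for 5p, was close to the median of 37.99%.

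The templated letters of the arms (positions 38 to 61 and 75 to 98) were paired with duplexfold of ViennaRNA, as a prediction and not a measurement. It gave 16 base pairs, none of them G-U, and -25.0 kcal/mol, with position 39 opposite 95 and position 59 opposite 75. Drosha and Dicer usually leave 2 unpaired bases at each 3′ end. Overhangs were counted from the position opposite the other arm's first base, whether or not that base was paired. By this count, 2 of the 36 combinations of 6 templated 5p forms with 6 templated 3p forms had 2-base overhangs at both ends. These were the leading 5p form (38 to 58) with the annotated 3p form (78 to 98), and the late-starting 5p form (40 to 61) with the leading 3p form (75 to 96). In the first of these, position 38 lies opposite 96 but was not predicted to pair, so 96 was unpaired as well. The leading forms of both arms did not make such a pair with each other.

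miR-1306-5p was higher on average in the high class. Here and below, fewer cells of a type and less RNA per cell cannot be told apart, since the libraries are of whole tissue. miR-1306-5p was lowest at 18.6, had a median of 24.8 and was highest at 48.3 CPM in the high class, against 16.7, 18.2 and 22.6 CPM in the low class. All 9 high libraries lay above the low median. Over all 221 tested miRNAs edgeR called 8 (3.62%) between the classes and DESeq2 called 22. Nothing about miR-1306 is read from these counts, since it was picked on this contrast. The groups overlapped: 6 of 9 high libraries lay above the highest low one, and 5 of 9 low libraries lay below the lowest high one. The fitted log2 fold change, high over low, was 0.52 ± 0.15 (SE), and without high replicate 6 it was 0.38.

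The mean difference in 5p, high minus low, had the same sign in all 4 runs of codes that the labels give the libraries. It was 9.08 CPM in U966 to U969, 9.86 in U074 to U077, 7.97 in U134 to U139 and 2.97 in AC485 to AC488, which holds 1 high library. Without high replicate 6 the difference in U134 to U139 was 1.07 CPM. Both leading 5p forms were higher on average in the high class, the annotated form at 10.23 ± 3.43 CPM against 6.62 ± 0.673 CPM in low libraries, and the shorter form at 12.2 ± 3.95 CPM against 9.46 ± 1.44 CPM in low libraries (SD, n = 9 each). Without high replicate 6 the high means were 9.15 ± 1.20 CPM for the annotated form and 11.11 ± 2.35 CPM for the shorter one (SD, n = 8).

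The 3p arm differed less evenly between the classes. miR-1306-3p ran from 4.05 to 7.78 CPM with a median of 5.89 in the high class, and from 2.21 to 5.97 CPM with a median of 4.77 in the low class. The groups overlapped, with 4 of 9 high libraries above the highest low one. The log2 fold change was 0.38 ± 0.21 (SE). High minus low was 1.59 CPM in U966 to U969, -0.403 in U074 to U077, 1.65 in U134 to U139 and 2.08 in AC485 to AC488. Without the run AC485 to AC488 the log2 fold change was 0.22. That run holds the 3 low libraries 7, 8 and 9, and low replicates 7 and 9, of 9601510 and 11785344 reads, listed only 1 and 2 of the 7 forms of 3p.

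**Figure D2:**
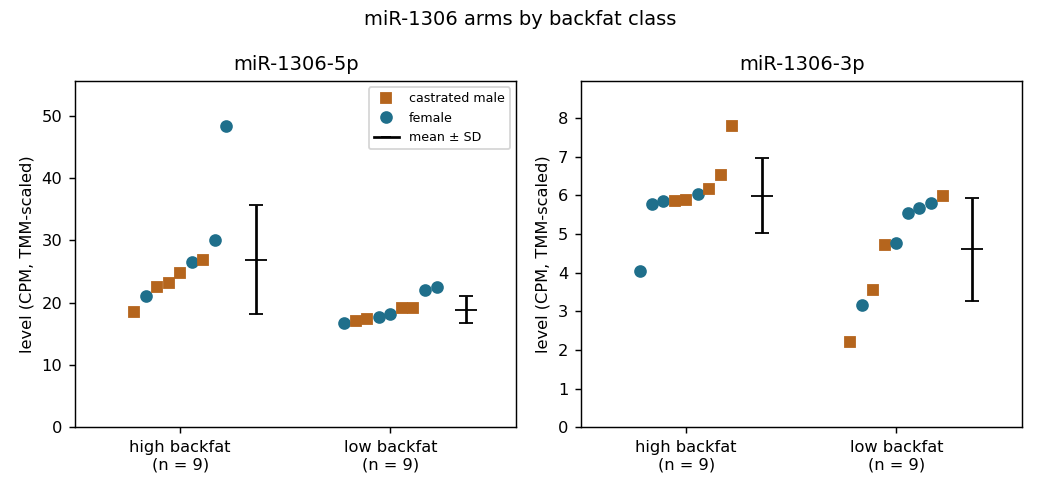
Level of miR-1306-5p (left) and miR-1306-3p (right) in TMM-scaled CPM by backfat class, 1 point per library with castrated males as squares and females as circles, and the mean with SD beside each class (n = 9). High 5p libraries lie between 18.6 and 48.3 CPM and low ones between 16.7 and 22.6 CPM, so the classes overlap.

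The number of forms listed moved with library depth. Libraries listed between 5 (low replicate 7) and 15 (high replicate 8) of the 21 forms. As a description over 18 libraries, Spearman's rho of the library total was 0.69 with the number of forms listed, 0.45 with the 3p share, 0.15 with the 3p level and -0.33 with the 5p level, all of which share the library's depth.

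**Figure D3:**
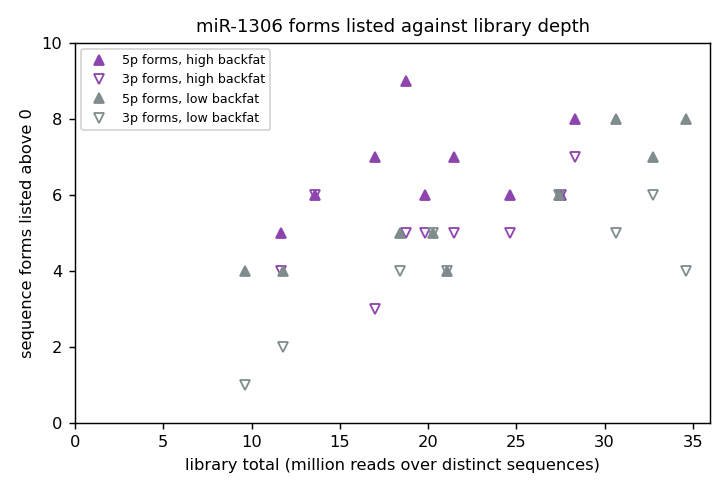
Number of miR-1306 sequence forms listed above 0 in each library against its total (axis in units of 1000000 reads), filled triangles for 5p and open ones for 3p, coloured by backfat class. The shallowest library, low replicate 7 with 9601510 reads, lists 1 form of 3p.

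The share of reads that came from the 3p arm overlapped between the classes. The 3p share of reads of both arms was 19.0% of the pooled reads, 19.1 ± 4.78% among high libraries and 19.6 ± 5.62% among low ones (SD, n = 9 each). It was 11.103% in high replicate 6, with a Wilson 95% interval of 9.56 to 12.9%, and 10.3% (6.71 to 15.6%) in low replicate 7, the lowest of all. These intervals cover counting error only, since the reads carry no molecular identifiers. With only the sequences listed in all libraries the share was 10.9 ± 2.66% among high libraries and 12.1 ± 3.05% among low ones, and with each 0 set to 9 reads it was 19.2 ± 3.72% and 21.6 ± 3.27%. Among 50 hairpins with both arms in the table the median share of the minor arm was 6.69%, and 12 had a larger one than miR-1306. High minus low, the 3p share was -2.53 points in U966 to U969, -7.82 in U074 to U077, 1.001 in U134 to U139 (3.98 without high replicate 6) and 4.87 in AC485 to AC488.

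The balance of the 2 leading 5p forms was described by the share of the shorter one among their reads. It was 54.3 ± 4.22% among high libraries and 58.7 ± 2.49% among low ones (SD, n = 9 each). The ranges, 46.0 to 60.4% and 55.7 to 62.6%, overlapped. High minus low was -9.39 points in U134 to U139 and -6.33 in AC485 to AC488, but -0.614 in U966 to U969 and 0.594 in U074 to U077. Forms classed as shorter or longer carry no mismatch, and the one at 40 to 61 among them is as long as the annotated form. Forms of this class held 53.9 ± 4.33% of 5p reads in high and 58.2 ± 2.72% in low libraries, with overlapping ranges. High minus low for these was -1.47 points in U966 to U969 and -1.28 in U074 to U077. In U134 to U139 it was -6.68, and in AC485 to AC488 -3.61. The exact form held 38.2 ± 3.65% in high and 35.1 ± 3.11% in low libraries. Mismatched forms held 7.89 ± 2.91% and 6.65 ± 3.26%. For both, high minus low differed in sign between runs.

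**Figure D4:**
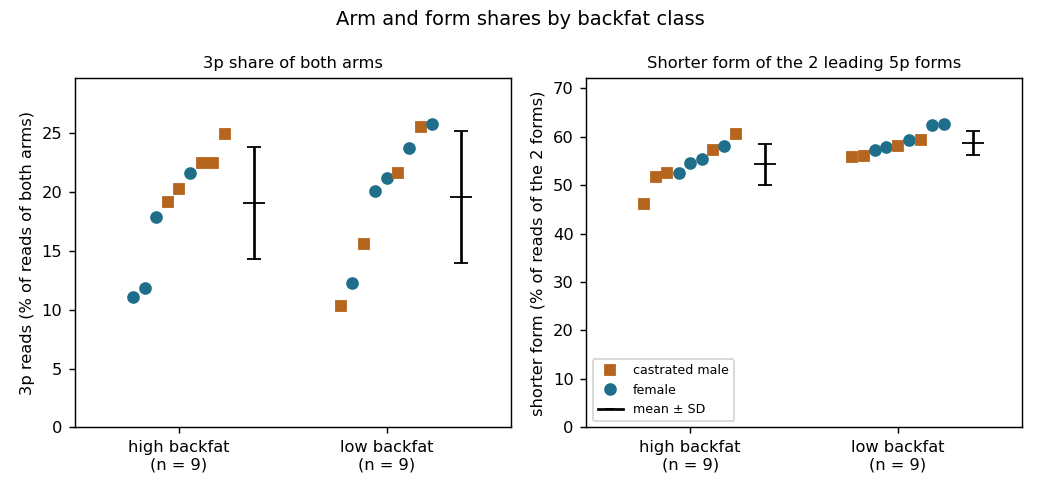
Share of 3p among reads of both arms (left, percent) and share of the 1-base-shorter form among reads of the 2 leading 5p forms (right, percent) by backfat class, 1 point per library with castrated males as squares and females as circles, and the mean with SD (n = 9). The 3p share spans 10.3 to 25.8% and the classes overlap in both panels.

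Sex was not used to choose the miRNA, and castrated males were tested against females with the class in the model. miR-1306-5p was lowest at 17.1, had a median of 19.2 and was highest at 26.9 CPM in castrated males, against 16.7, 22.03 and 48.3 CPM in females. The ranges overlapped, and the highest value was again high replicate 6. The log2 fold change, castrated male over female, was -0.27 ± 0.15 (SE; edgeR quasi-likelihood test, adjusted p = 0.626 over 221 miRNAs), and -0.11 without high replicate 6. Within the runs castrated males minus females was -0.358 CPM in U966 to U969, -2.85 in U074 to U077, -6.69 in U134 to U139 and -1.55 in AC485 to AC488. In U134 to U139 the sign turned without high replicate 6, to 0.357 CPM.

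miR-1306-3p averaged 5.405 ± 1.67 CPM in castrated males and 5.19 ± 0.987 CPM in females (SD, n = 9 each), with ranges of 2.21 to 7.78 and 3.17 to 6.04 CPM. Its log2 fold change was -0.01 ± 0.21 (SE; edgeR, adjusted p = 0.996). The within-run differences were 0.521, 1.52 and 1.13 CPM in U966 to U969, U074 to U077 and U134 to U139, and -1.68 CPM in AC485 to AC488. No miRNA was called between the sexes (0 of 221, 0%) by edgeR or by DESeq2, and 17 had an unadjusted edgeR p under 0.05.

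**Figure D5:**
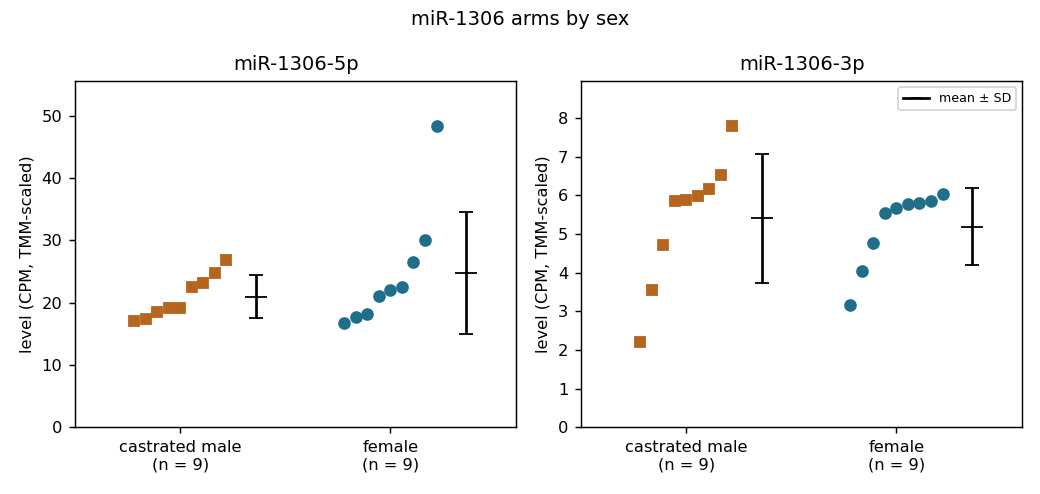
Level of miR-1306-5p (left) and miR-1306-3p (right) in TMM-scaled CPM in castrated males (squares) and females (circles), 1 point per library, with the mean and SD (n = 9 each). Castrated males lie between 17.1 and 26.9 CPM for 5p and females between 16.7 and 48.3 CPM.

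Single forms gave no call by sex either. Of the 21 sequences, 10 passed the low-count filter, and 0 of 7330 sequence entries (0%) were called by edgeR, with 339 at an unadjusted p under 0.05. DESeq2 called 20 entries, none of them of miR-1306. The lowest p among the 10, 0.0728 before adjustment (adjusted p = 0.924, edgeR), belonged to the form at 38 to 58, at 9.71 ± 1.65 CPM in castrated males and 11.9 ± 4.04 CPM in females (SD, n = 9 each). Without high replicate 6 the lowest p among the 10 forms was 0.176 before adjustment (edgeR). The leading 3p form at 75 to 96 averaged 2.47 ± 0.461 CPM in castrated males and 2.58 ± 0.525 CPM in females.

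Shares by sex were tested by exact permutation, two-sided, over all 48620 splits of 9 against 9. Unlike the fits of levels, these tests took no account of the class or of the run of codes. Library totals averaged 18903300 ± 7986710 reads in castrated males and 24352100 ± 6129550 in females (SD, n = 9 each). The part of depth in the shares by sex was not tested. The 3p share was 20.3 ± 4.78% in castrated males and 18.4 ± 5.46% in females (SD, n = 9 each, exact permutation p = 0.448). Castrated males minus females was 1.19 points in U966 to U969, 5.84 in U074 to U077, 6.01 in U134 to U139 and -4.74 in AC485 to AC488, and 0.941 over all libraries but high replicate 6. That library also moved U134 to U139, which gave 3.803 points without it. The difference of 1.85 points between the 2 sex means was 0.497 over sequences listed in all libraries (exact permutation p = 0.723). With each 0 set to 9 reads it was 3.11 points (exact permutation p = 0.0671). The exact annotated form held 37.7 ± 3.89% of 5p reads in castrated males and 35.6 ± 3.28% in females (exact permutation adjusted p = 0.353). Forms classed as shorter or longer held 54.7 ± 4.66% in castrated males and 57.5 ± 3.22% in females (exact permutation adjusted p = 0.353). Mismatched forms held 7.64 ± 2.93% in castrated males and 6.90 ± 3.33% in females (exact permutation adjusted p = 0.619). The shorter of the 2 leading 5p forms, a share chosen after its values were seen, held 55.2 ± 4.48% of their reads in castrated males and 57.8 ± 3.36% in females (exact permutation p = 0.193). Within the runs, castrated males minus females differed in sign for the exact form, from -2.65 points in U074 to U077 to 7.04 in U134 to U139. It ran from -8.45 to 0.515 points for forms classed as shorter or longer and from -0.609 to 4.51 for mismatched forms. Over all 18 libraries none of these shares passed the test by sex.

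Whether the class difference varied with sex was tested as an interaction. In castrated males miR-1306-5p averaged 23.2 ± 3.09 CPM with high backfat (n = 5) and 18.2 ± 1.13 CPM with low backfat (n = 4). In females it averaged 31.5 ± 11.8 CPM with high backfat (n = 4; 25.9 ± 4.52 CPM without high replicate 6) and 19.5 ± 2.66 CPM with low backfat (n = 5). The log2 class difference in castrated males minus that in females was -0.35 ± 0.29 (SE; edgeR, adjusted p = 0.741), and -0.0057 without high replicate 6. For miR-1306-3p the means were 6.44 ± 0.795 and 4.11 ± 1.61 CPM in castrated males of the high and low class, and 5.43 ± 0.924 and 4.995 ± 1.10 CPM in females of the high and low class (SD). Its interaction was 0.51 ± 0.41 (SE; edgeR, adjusted p = 0.741). None of the 221 miRNAs (0%) was called for the interaction by edgeR, 25 had an unadjusted p under 0.05, and DESeq2 called 3, neither arm of miR-1306 among them.

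Arms of 1 hairpin are cut from the same transcript, so their levels were compared across the 18 libraries on the log2 CPM scale, as were those of miR-1306-5p and miR-185, the miRNA encoded near DGCR8. The arms gave Pearson's r of 0.19 (permutation adjusted p = 0.771) and Spearman's rho of 0.22 (permutation adjusted p = 0.765) over the 2 relations tested. Without high replicates 6 and 4, the libraries farthest from the median, r was 0.27 (permutation p = 0.324). Within the high class r was -0.16 (exact permutation p = 0.604) and within the low class -0.40 (exact permutation p = 0.276). U134 to U139, the one run of 6 libraries, gave r of 0.06 (exact permutation p = 0.775), and the other runs hold too few. On the deposited normalised counts r was 0.43 (permutation adjusted p = 0.173). No relation between the arms passed the test in these 18 libraries, where 3p had 19 to 214 reads a library.

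miR-185 averaged 36.3 ± 7.28 CPM (SD, n = 18), 38.1 ± 8.17 CPM among high libraries and 34.5 ± 6.22 CPM among low ones. Its relation to miR-1306-5p gave r of -0.07 (permutation p = 0.771) and rho of -0.03 (permutation p = 0.902), and r was 0.06 without the 2 farthest libraries. Without high replicate 6 alone r was 0.12 (permutation p = 0.654). On the deposited normalised counts the sign turned, with r of 0.33 (permutation adjusted p = 0.180). Within the high class r was -0.22 and within the low class -0.59 (exact permutation p = 0.587 and 0.0944), and in U134 to U139 it was -0.44 (exact permutation p = 0.435). Its log2 fold change by sex was 0.08 ± 0.15 (SE; edgeR, adjusted p = 0.893).

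Of lists of miRNAs encoded near DGCR8, in exons, or made by other routes than the usual one, the table held 1 member each, and none was called by sex in edgeR. These were miR-185 of 4 listed, miR-155-5p of 6 and miR-320 of 7. miR-155-5p, which in human comes from the exon of a noncoding transcript, averaged 187 ± 43.7 CPM with a log2 fold change, castrated male over female, of 0.31 ± 0.15 (SE; edgeR, adjusted p = 0.598). miR-320, whose hairpin is made without Drosha in mouse, averaged 1408 ± 188 CPM with a log2 fold change of -0.06 ± 0.10 (SE; edgeR, adjusted p = 0.893).

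The miRNAs whose levels ran most like miR-1306-5p over the 18 libraries, by Spearman's rho of log2 CPM and with no test, were miR-486 (0.68), miR-92b-3p (0.57), miR-365-5p (0.55), miR-7137-3p (0.53) and miR-132 (0.52). The median rho over 220 miRNAs was -0.0083, miR-1306-3p came at rank 48 and miR-185 at rank 117. All values share library depth and the class difference, and with each class centred on its own mean the rho of the 5 was 0.49, 0.37, 0.09, 0.12 and 0.21. miR-486, abundant in red blood cells, averaged 1941 ± 794 CPM among high libraries and 1396 ± 368 CPM among low ones (SD, n = 9 each). The 4 red blood cell miRNAs fixed as markers, miR-486 among them, summed to 3178 to 6763 CPM among high libraries (median 4485). Among low libraries they summed to 2676 to 10474 CPM (median 3567). Their rho with miR-1306-5p was 0.42. Their part in the 5p level was not tested.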

How the data were processed

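Small RNA of 18 backfat libraries was sequenced as single-end reads of 100 bases on an Illumina GAII, per the labels' protocols. The authors deposited whole-number read counts per sequence entry and, as a normalised signal, counts after scaling. Per the submitters' processing notes Bowtie 0.12.7, HTSeq and DESeq2 1.4.5 were used with the build Sscrofa10.2; the remaining steps are not given in the sources used. A further 2 value columns matching no sample were not used.

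From the 20801 deposited entries (210 precursors), each sequence was counted once per mature miRNA. Sums were filtered with filterByExpr (minimum count 10, grouped by class), TMM-scaled and fitted in edgeR 4.0.16 (R 4.3.3) with class and sex, or their 4 combinations, and p adjusted over all miRNAs by Benjamini-Hochberg with a threshold of 0.05. DESeq2 1.42.0 and limma 3.58.1 (log2 of the deposited normalised count plus 1) were alternatives. The fits were tested on simulated data. Shares and correlations (prior count 2) used permutation tests in SciPy 1.17.1, with 100000 resamples for 18 libraries; pairing used ViennaRNA 2.7.2.

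Named were the 5 most frequent forms per arm, the 3 miRNAs on each side of an arm in level, the 5 most alike and the held members of the lists of DGCR8 neighbours, exonic hairpins and nonstandard biogenesis; markers of other tissues are given as sums. Members and lists were chosen with earlier results of these data known. Chosen after seeing the data were fits on sequences listed in every library, on forms with no mismatch, and without AC485 to AC488. So were values without high replicate 6 outside the fits, zeros set to 9 reads, and the share of the shorter 5p form. Replicate numbers follow sample order and pair nothing.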

Additional observations from a re-analysis of the deposited data

Results flagged for a closer look

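High replicate 6, a female, had miR-1306-5p at 48.3 CPM, far from the other 8 high libraries (18.6 to 30.1 CPM). Its gap to the next library was 0.611 of the range of the class, above the critical 0.493 of Dixon's test for 9 values. The same library was far from the other 8 females (16.7 to 30.1 CPM), with a gap of 0.575 of the range. Of 28 sets of a group and a measure checked, these 2 were beyond the limit. Both rest on the same value, and the sets reuse the same 18 libraries. A chance rate of about 5% for separate sets therefore cannot be set against them. The library had 1241 reads of 5p against 165 to 755 in the others. It stood at 66.2 reads per 1000000 before TMM scaling and at 1251 in the deposited normalised counts, where the others ran from 273 to 608. Its 3p level, 6.04 CPM, lay inside the range of the other high libraries. It was also the highest library for 47 of 221 miRNAs; the part of this in the 5p value was not tested.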

How the results depend on the processing

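The 14 results were recomputed under 358 alternative values, and in all 358 each kept its side of the test's threshold or, where described only, its direction. None of the tested results was called in the main setting, so keeping its side shows only that it stayed uncalled. An uncalled result counts as kept even where its sign turned. The class direction of miR-1306-5p was known when it was picked, so its being kept adds no support. Settings that hold fewer libraries are also less able to pass a threshold. The log2 fold change of miR-1306-5p, high over low, ran from 0.44 (age added) to 0.62 over other settings and from 0.38 (without high replicate 6) to 0.58 with 1 library left out. Castrated male over female for 5p ran from -0.34 to -0.23 over other settings and from -0.33 to -0.11 with 1 library left out (adjusted p 0.330 to 0.954 over both). For 3p it ran from -0.09 to 0.25 and so changed sign without being called. Without single libraries the 5p interaction ran from -0.50 to -0.0057. The 3p share, castrated male minus female, was -2.37 points within the low class and 6.23 within the high class. The miRNAs called between the classes numbered 8 of 221 in edgeR, 22 by DESeq2, 1 with DESeq2 size factors and 0 with age added, and the interaction gave 0 in edgeR and 3 by DESeq2; the cause was not tested. A filter at a mean of 10 CPM left no value for 3p. No paired analysis was possible because the labels give no replicate numbers shared between the groups. The cut at 10 reads limits 3p most, at 19 to 214 reads a library, and 11 of the 21 forms failed the low-count filter; without the filter all 21 were fitted and 0 called.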
